A study of Mus musculus with 6 samples.

Results

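Plasma membrane calcium pumps and the calcium channels that open the intracellular store were followed in cultured mouse cerebellar granule neurons (CGNs) in which the histone methyltransferase EZH2 was inhibited. The 10 genes were chosen by family, by symbol, from the 55341 gene rows of the count tables. No cut on a measured value was used, but earlier results of these data were known at the time. They are the 4 pump genes Atp2b1, Atp2b2, Atp2b3 and Atp2b4, the 3 IP3 receptor genes Itpr1, Itpr2 and Itpr3, and the 3 ryanodine receptor genes Ryr1, Ryr2 and Ryr3. Of these 10 genes, 9 had enough reads to be tested.

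RNA-seq had been carried out on 6 libraries, 3 from cultures given the vehicle DMSO and 3 from cultures given GSK-126, a small molecule inhibitor of EZH2. The labels name the cells as CGN and state the agent and the replicate number of a culture. Dose and day are absent, and the tissue is entered as cerebellum. The study describes RNA-seq with GSK-126 added at an earlier or at a later day of culture, and the labels do not say which applies here. According to the study's methods, both groups were neurons of CD1-IGS mice, an outbred stock, taken from early postnatal pups, enriched as granule neuron precursors on a density gradient, and given cytosine arabinoside (AraC) to block dividing cells. Each replicate came from the pooled cerebella of litters, so that a value is not that of a single animal, and other cells of the cerebellum can remain in such cultures.

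A neuron keeps its resting cytosolic calcium very low and lets it rise in brief signals. The plasma membrane calcium ATPases (PMCAs), encoded by Atp2b1 to Atp2b4, use ATP to move calcium out of the cell. The IP3 receptors release calcium from the endoplasmic reticulum when receptors at the surface generate inositol trisphosphate (IP3), and the ryanodine receptors release it when calcium itself rises. In the cerebellum Itpr1 is best known for its very high level in Purkinje cells, and Atp2b2, which is mutated in deaf and ataxic mice, is abundant in Purkinje cells and is also made by granule neurons.

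The libraries held from 8058760 to 12047837 counts over genes, and GSK-126 replicate 1 was the deepest. The groups were compared within the 3 pairs of the same replicate number (edgeR, replicate number as a block), a pairing that the study's methods do not state. Libraries that shared a replicate number deviated from their group means together. All 10 granule neuron markers were detected. Their summed level was 4009, 6192 and 4495 CPM (a count relative to the size of its library) in DMSO replicates 1, 2 and 3, and 2804, 4415 and 3159 CPM in the GSK-126 replicates. Astrocyte and Bergmann glia markers, 7 genes, summed to 2524 to 7550 CPM with DMSO and to 2514 to 7797 CPM with GSK-126, so glial RNA was present in every library. These sums are given again beside the genes that move with them.

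The clearest difference in the 10 genes was in a pump. Atp2b2 fell under GSK-126 in each of the 3 pairs, to 0.650 of the DMSO level, and it was the 1 gene of the 9 tested that passed an adjusted p of 0.05. No gene of the 10 was called higher by edgeR, DESeq2 or limma. In edgeR 2 of the 9 had an unadjusted p below 0.05, Atp2b2 and Atp2b3, both lower, beside 2735 of all 16343 genes tested. Over all 16343 genes tested, 597 passed (3.65%), of which 232 were lower (1.42%) and 365 were higher (2.23%), beside 1 of 9 (11.1%) here, and a single gene cannot set these families apart. Without the replicate block 0 of the 16343 genes passed (0%), although 981 had an unadjusted p below 0.05, and Atp2b2 did not pass either.

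Atp2b2 lies on the minus strand of chromosome 6 from 113743831 to 114042613 in GRCm38 and encodes PMCA2, the pump with the highest resting activity of the family. Its level was 294, 712 and 354 CPM in DMSO replicates 1, 2 and 3 and 179.6, 449 and 253 CPM in GSK-126 replicates 1, 2 and 3. Every GSK-126 library was below the DMSO library of its number, at 0.610, 0.630 and 0.714 of it, but the groups overlapped because replicate 2 was high in both. The log2 fold change was -0.62 with an SE of 0.10 and a 95% interval from -0.84 to -0.40 (adjusted p = 0.00906, edgeR quasi-likelihood test). The means were 454 ± 226 CPM with DMSO and 294 ± 139 CPM with GSK-126 (SD, n = 3). Without the block the estimate was -0.63 with an SE of 0.40 (adjusted p = 0.841), and with the block but without replicate 2 it was -0.58 (adjusted p = 0.0779).

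RefSeq promoter windows, the 250 bases before an annotated start, were read for 7 of the 10 genes in GRCm38.p6. They are shown for Atp2b2, the gene that changed, and for Atp2b1, the most abundant pump, chosen from windows that hold no annotated exon. CpG dinucleotides are marked because EZH2 is known to act mainly at CpG-rich promoters. Each sequence runs 5′ to 3′ on the strand of the gene, with these dinucleotides in capitals. The Atp2b2 windows lie at chr6:113934682-113934931 and chr6:113891540-113891789 on the minus strand, and the Atp2b1 window lies at chr10:98914902-98915151 on the plus strand.
Atp2b2 start 2: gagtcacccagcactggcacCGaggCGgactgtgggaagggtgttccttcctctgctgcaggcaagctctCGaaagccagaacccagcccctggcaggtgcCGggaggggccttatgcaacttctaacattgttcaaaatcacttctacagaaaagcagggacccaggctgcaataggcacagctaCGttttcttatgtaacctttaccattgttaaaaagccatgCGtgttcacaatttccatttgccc
Atp2b2 start 3: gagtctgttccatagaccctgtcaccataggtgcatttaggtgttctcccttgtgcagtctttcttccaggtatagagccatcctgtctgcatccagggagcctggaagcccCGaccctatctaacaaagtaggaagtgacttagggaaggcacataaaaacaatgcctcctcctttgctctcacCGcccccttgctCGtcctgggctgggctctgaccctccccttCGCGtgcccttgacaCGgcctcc
Atp2b1 start 2: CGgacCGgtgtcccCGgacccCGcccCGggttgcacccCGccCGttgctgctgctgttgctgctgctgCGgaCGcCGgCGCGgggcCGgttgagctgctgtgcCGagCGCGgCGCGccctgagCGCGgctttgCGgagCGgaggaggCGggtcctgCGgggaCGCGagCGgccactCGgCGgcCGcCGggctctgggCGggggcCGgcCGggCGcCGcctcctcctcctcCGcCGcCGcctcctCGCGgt
Both Atp2b2 windows held 6 CpG, the median of all 32851 windows of the same length, whereas the Atp2b1 window held 41. A further Atp2b2 window, at its most distal start, held 16 CpG, more than 74.6% of all windows. It overlaps an Atp2b2 exon, and the bases after this start were not found in a GENCODE transcript of the gene. The other Atp2b1 window held 43 and overlaps an Atp2b1 exon. The windows of Itpr3, Itpr2, Ryr2, Ryr1 and Atp2b4 held 25, 22, 14, 6 and 2. Of these genes Ryr1 was not tested and the others were not called. The Ryr1 and Atp2b4 windows overlap an annotated exon of their own gene. That of Atp2b4, at chr1:133753748-133753997, lies inside the gene rather than before its outermost start. Whether CpG content goes with the response to GSK-126 was not tested. Which start was used in these cultures was not measured.

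The other pumps were lower in every pair as well, but none of them passed the test. Atp2b3 (chromosome X, 73503086 to 73571005, plus strand) encodes PMCA3, a pump found mainly in neurons. It was at 101, 161 and 93.6 CPM with DMSO and at 59.8, 107 and 82.5 CPM with GSK-126 in replicates 1, 2 and 3. The 3 ratios within pairs were 0.595, 0.666 and 0.882, and the ranges of the groups overlapped. Its log2 fold change was -0.51 with an SE of 0.13 and an interval from -0.79 to -0.23 (adjusted p = 0.0532), just outside the threshold. DESeq2 and limma put it inside, with adjusted p = 0.0320 and 0.0494, as did the fit with no filter on low counts (0.00292) and the fit without replicate 3 (0.0334). It stayed outside without the block (0.825), with RLE scaling (0.0633), without replicate 1 (0.0941) and without replicate 2 (0.218).

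Atp2b1 (chromosome 10, 98914406 to 99026143, plus strand) encodes PMCA1, the pump that most cell types use. Its level was 651, 789 and 619 CPM with DMSO and 523, 762 and 575 CPM with GSK-126. The groups overlapped, and the log2 fold change was -0.16 with an SE of 0.10 and an interval from -0.38 to 0.07 (adjusted p = 0.484). The interval reaches down to a fold of 0.769, and without replicate 1 the log2 fold change was -0.08.

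Atp2b4 (chromosome 1, 133699457 to 133801041, minus strand) encodes PMCA4, a widely expressed pump. It was at 42.7, 126 and 40.3 CPM with DMSO and at 37.2, 112 and 34.7 CPM with GSK-126. Here replicate 2 stood far above the other 2 in both groups, while the pairs differed little, with ratios from 0.862 to 0.892. The log2 fold change was -0.19 with an SE of 0.11 and an interval from -0.44 to 0.06 (adjusted p = 0.438).

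**Figure D1:**
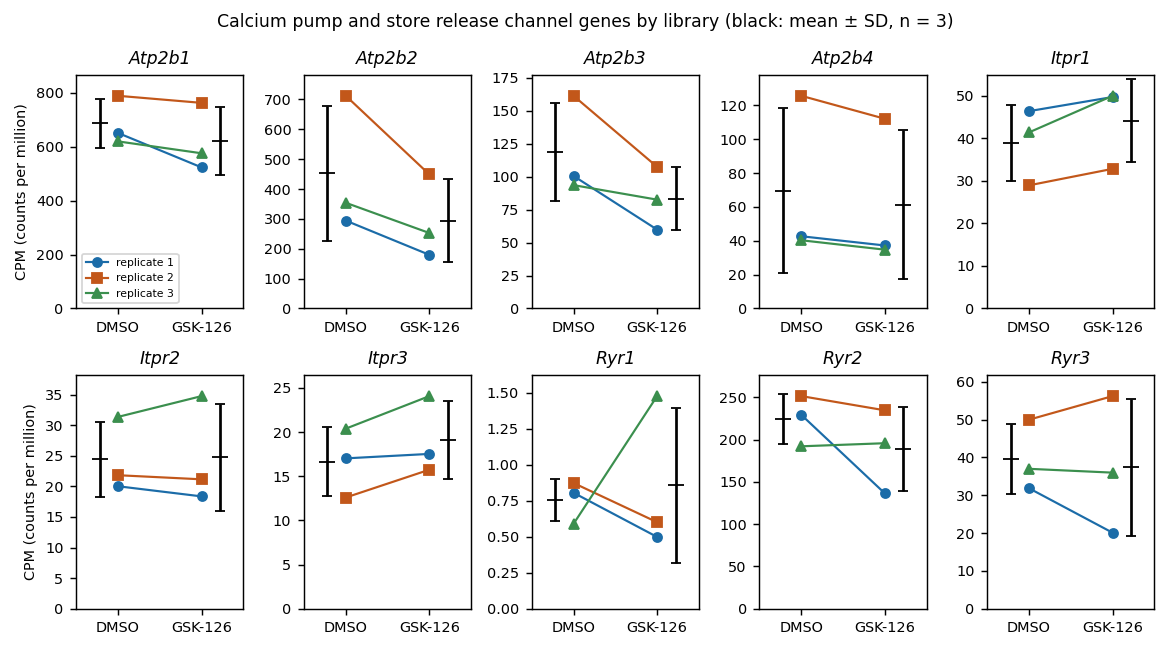
Level of each of the 10 genes in CPM (y axis, linear, from 0) with DMSO and with GSK-126 (x axis); lines join libraries of 1 replicate number, and black bars give the mean ± SD of 3 libraries. All 3 Atp2b2 lines fall, from 294, 712 and 354 to 179.6, 449 and 253 CPM, and replicate 2 (squares) lies highest for each of the 4 pumps.

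The IP3 receptors showed no called change. Itpr1 (chromosome 6, 108213096 to 108551109, plus strand) was at 46.3, 28.9 and 41.4 CPM with DMSO and at 49.7, 32.8 and 50.0 CPM with GSK-126. The GSK-126 library was the higher of each pair, by ratios of 1.07, 1.13 and 1.21, but the groups overlapped and the log2 fold change was 0.18 with an SE of 0.13 and an interval from -0.10 to 0.46 (adjusted p = 0.519). Exons of Gm44040 and Gm44101 on the opposite strand cover 1.58% of its exon bases, with 8 to 31 counts each, and the strand setting of the counting is not given in the sources used here. The 10 markers of Purkinje cells, the known site of high Itpr1, summed to 111 to 124 CPM with DMSO and 109 to 147 CPM with GSK-126, and none of the 7 tested was called. Their levels were uneven. Rgs8 had 549 to 829 counts, Lhx1 had 156 to 200 and Calb1 had 73 to 168, whereas Pcp2 had 14 to 25, Ppp1r17 had at most 3 and Skor2 was at 0 in all 6 libraries. The part of Purkinje cells in the Itpr1 level was not tested.

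Itpr2 (chromosome 6, 146108299 to 146502223, minus strand), the IP3 receptor best known in glia, heart and secretory cells, was at 20.0, 21.8 and 31.3 CPM with DMSO and at 18.4, 21.1 and 34.7 CPM with GSK-126. Replicate 3 was the highest in both groups and the pairs went both ways. Its log2 fold change was -0.00 with an SE of 0.15 and an interval from -0.34 to 0.33 (adjusted p = 0.996). Itpr3 (chromosome 17, 27057304 to 27122223, plus strand), an IP3 receptor of epithelial and secretory cells, was at 17.0, 12.6 and 20.4 CPM with DMSO and at 17.5, 15.7 and 24.1 CPM with GSK-126. It was higher in each of the 3 pairs, with a log2 fold change of 0.20, an SE of 0.17 and an interval from -0.18 to 0.58 (adjusted p = 0.631). Itpr3os on the opposite strand covers 2.58% of its exon bases.

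The ryanodine receptors were almost wholly Ryr2 and Ryr3. Ryr2 (chromosome 13, 11553102 to 12106945, minus strand), the receptor of heart muscle and of many neurons, was at 229, 252 and 192 CPM with DMSO and at 136, 235 and 196 CPM with GSK-126. Pair 1 differed most, with a ratio of 0.595 against 0.933 and 1.02 in pairs 2 and 3. The log2 fold change was -0.27 with an SE of 0.14 and an interval from -0.59 to 0.04 (adjusted p = 0.379). Without replicate 1 the log2 fold change was -0.04 (adjusted p = 0.898).

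Ryr3 (chromosome 2, 112631355 to 113217096, minus strand), found at lower levels in brain and muscle, was at 31.9, 50.0 and 37.0 CPM with DMSO and at 20.1, 56.2 and 36.0 CPM with GSK-126. Pair 1 was again the one with the low GSK-126 library, and pair 2 went the other way. The log2 fold change was -0.17 with an SE of 0.17 and an interval from -0.53 to 0.20 (adjusted p = 0.687), and without replicate 1 it was 0.07 (adjusted p = 0.851). Aven, which had 85 to 151 counts, overlaps 4.83% of the Ryr3 exon bases from the opposite strand. Ryr1 (chromosome 7, 29003344 to 29125179, minus strand), the receptor of skeletal muscle, had 7, 7 and 5 counts with DMSO and 6, 5 and 13 counts with GSK-126, too few for a test. Muscle markers, 4 genes, summed to 5.24 to 8.84 CPM with DMSO and 6.15 to 11.1 CPM with GSK-126, and other genes on the opposite strand cover 4.19% of the Ryr1 exon bases.

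**Figure D2:**
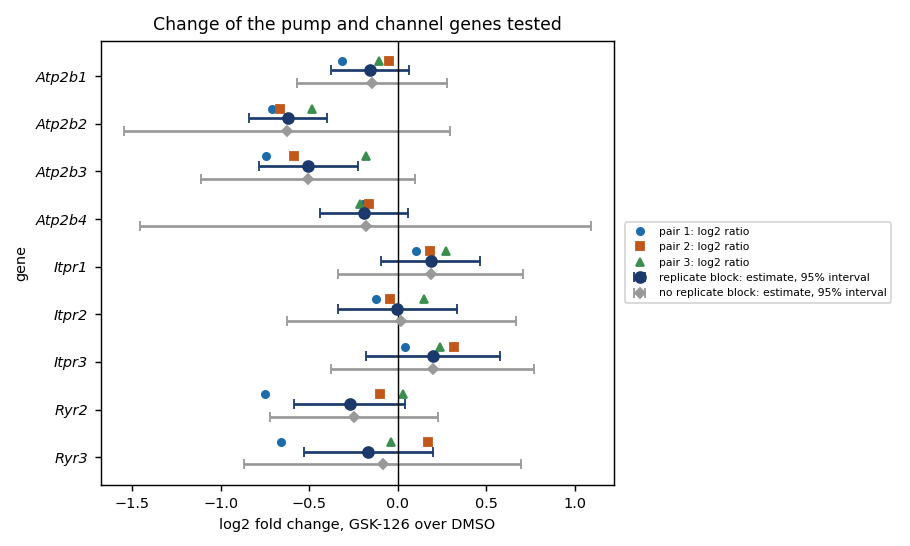
Log2 fold change of GSK-126 over DMSO (x axis) of the 9 genes tested (y axis); small symbols are the ratios within the 3 pairs, and bars are 95% intervals of the estimate with the replicate block (blue) and without it (grey). The interval with the block lies below 0 for Atp2b2, from -0.84 to -0.40, and for Atp2b3, from -0.79 to -0.23, and every grey interval crosses 0.

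Across the 9 genes the median log2 fold change was -0.17, against -0.00 over all genes tested. The 4 pumps were each lower in 3 of 3 pairs, Itpr1 and Itpr3 were each higher in 3 of 3, and no ryanodine receptor went the same way in all pairs. In all, 6 of the 9 went 1 way in every pair, and 39% of all genes tested did so. For none of the 9 genes were all GSK-126 libraries outside the DMSO range, as they were for 10.9% of all genes tested.

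Differences between replicate numbers were larger than those between the groups for several of these genes. Within the DMSO group, replicate 2 was 2.20 times the mean of the other 2 libraries for Atp2b2, 1.66 times for Atp2b3 and 3.03 times for Atp2b4, and within the GSK-126 group it was 2.08, 1.51 and 3.12 times. Itpr1 went the opposite way, at 0.660 and 0.658 of the others. Replicate 2 also had the highest sum of granule neuron markers and the lowest sum of astrocyte and Bergmann glia markers in both groups. In RNA from whole cultures, fewer cells of a type and less RNA per cell cannot be told apart.

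To compare genes with each other, levels were divided by exon length (CPM per kb). With DMSO, Atp2b1 was at 45.1 ± 5.91 CPM per kb, Atp2b2 at 36.0 ± 17.9 and Atp2b3 at 24.6 ± 7.73 (SD, n = 3), and neighbours in this order overlapped. Below a gap came Ryr2 at 7.79 ± 1.04 and Atp2b4 at 5.68 ± 3.97 CPM per kb, which overlapped each other. Itpr1 at 2.12 ± 0.490, Ryr3 at 2.09 ± 0.492, Itpr3 at 1.85 ± 0.433 and Itpr2 at 1.65 ± 0.411 CPM per kb formed a lower level in which neighbours could not be separated. Ryr1 lay below all of them, at 0.035 CPM per kb.

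Within the pump family the summed level was 90.4, 152 and 91.5 CPM per kb in DMSO replicates 1, 2 and 3 and 64.05, 117 and 77.8 CPM per kb with GSK-126. The GSK-126 sum was thus the lower of each pair, at 0.708, 0.770 and 0.851 of the DMSO sum. Atp2b1 made up 42.0 ± 6.96% of the pump level with DMSO and 48.3 ± 5.45% with GSK-126, and Atp2b2 made up 31.2 ± 5.69% and 26.1 ± 4.09%. The share of Atp2b1 was higher, and that of Atp2b2 lower, with GSK-126 in each of the 3 pairs, and both pairs of ranges overlapped between the groups.

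The IP3 receptors were shared evenly. Itpr1 held 37.8 ± 5.30% of their level with DMSO, Itpr3 held 32.7 ± 1.34% and Itpr2 held 29.5 ± 5.28%, and with GSK-126 the shares were 39.1 ± 5.99%, 34.2 ± 1.12% and 26.7 ± 4.97%. Among the ryanodine receptors Ryr2 held 78.7 ± 3.15% with DMSO and 77.4 ± 4.13% with GSK-126, and Ryr3 held nearly all of the rest. For every gene of both channel families the range of shares with GSK-126 overlapped that with DMSO.

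**Figure D3:**
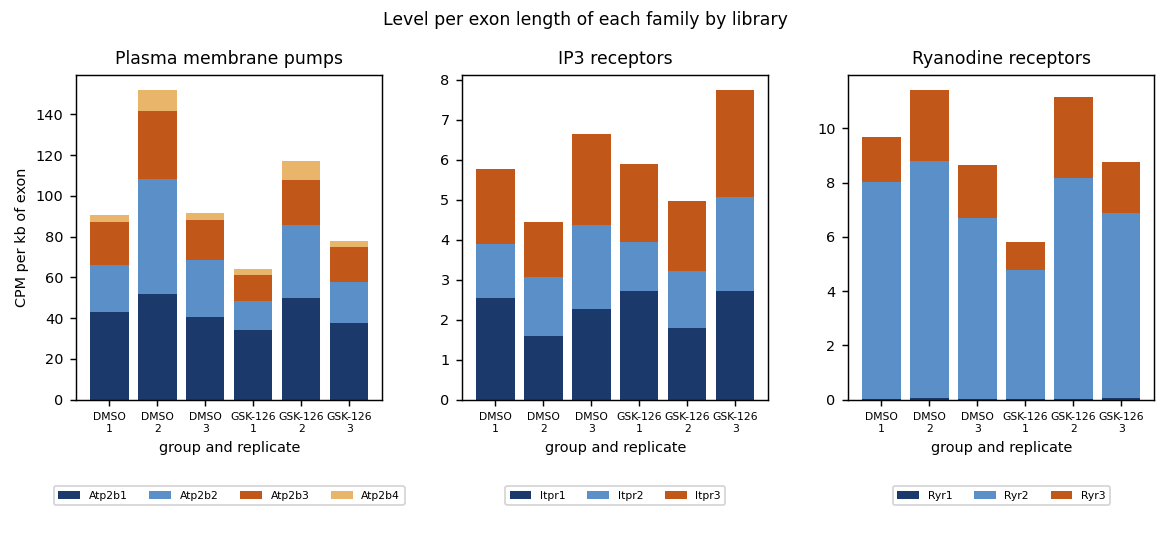
Level per exon length (y axis, CPM per kb) in each of the 6 libraries (x axis), stacked by gene for the pumps, the IP3 receptors and the ryanodine receptors, each panel on its own scale from 0. The pump total is lower with GSK-126 in every pair, as in replicate 2 with 152 against 117 CPM per kb, and Itpr1, Itpr2 and Itpr3 take similar parts of the IP3 receptor total.

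The genes that act with these pumps and channels were read from 11 lists by role, which hold 105 genes, of which 97 were tested. The lists were drawn up with earlier results of these data known. Of these, 2 fell and 2 rose and the others did not pass, with a median log2 fold change of 0.03. The called share of 4.12% is near that of all genes. Without the block none was called (edgeR, 0 of 97), and 6 of the 97 then had an unadjusted p below 0.05 against 23 with it. Over all 16343 genes tested these counts were 981 without the block and 2735 with it.

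Slc8a2, which encodes the sodium/calcium exchanger NCX2 of neurons, fell most. It was at 99.4, 363 and 125 CPM with DMSO and at 32.3, 74.4 and 44.8 CPM with GSK-126, so that every GSK-126 library lay below every DMSO library. Its log2 fold change was -1.80 with an SE of 0.15 (adjusted p = 3.4e-04), and without the block it was -1.96 with an SE of 0.51 (adjusted p = 0.768). Exchangers carry calcium out at high rate and low affinity, beside the pumps. Of 8 exchanger genes tested Slc8a2 was the 1 that passed. The exchangers did not all go 1 way: 6 had a negative log2 fold change and 2 a positive one. In this list 4 genes were lower in every pair and 1 was higher in every pair.

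Jph3, a junctophilin that holds the endoplasmic reticulum near the plasma membrane where ryanodine receptors sit, also fell. It was at 94.5, 171 and 114 CPM with DMSO and at 63.1, 104 and 69.5 CPM with GSK-126, with a log2 fold change of -0.67 and an SE of 0.11 (adjusted p = 0.00812). The groups overlapped, and without replicate 2 the adjusted p was 0.0536. It was the 1 called gene of 11 ryanodine receptor partners and junctophilins tested.

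The genes that rose were Itpkb and Itpripl2. Itpkb, a kinase that turns IP3 into a tetrakisphosphate that no longer opens the receptor, was at 66.5, 39.4 and 62.3 CPM with DMSO and at 117, 51.9 and 83.3 CPM with GSK-126. Its log2 fold change was 0.55 with an SE of 0.12 (adjusted p = 0.0359), and leaving out replicate 1, 2 or 3 gave an adjusted p of 0.0802, 0.0700 or 0.0894. Itpripl2, named for its likeness to an IP3 receptor interacting protein, was at 49.0, 38.8 and 67.0 CPM with DMSO and at 75.3, 56.9 and 101 CPM with GSK-126. Its log2 fold change was 0.59 with an SE of 0.11 (adjusted p = 0.0164), with 0.0581 without replicate 2 and 0.122 without replicate 3. Without the block the adjusted p was 0.814 for Jph3 and 0.825 for both Itpkb and Itpripl2. In the lists of IP3 breakdown and of IP3 receptor partners these were the 1 call of 7 and the 1 call of 13 genes tested.

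The other 7 lists had no call. The genes of highest mean CPM in these lists included Atp2a2, the SERCA pump that refills the store, with a log2 fold change of -0.14 and an SE of 0.10, and Calr, the luminal calcium buffer calreticulin, at 0.28 with an SE of 0.11 (0.15 without replicate 1). Adjusted p-values were 0.516 and 0.217. Gnaq, which couples receptors to IP3 formation, Vdac1 of the outer mitochondrial membrane, Tpcn1 of lysosomes and Tmbim6, an endoplasmic reticulum leak protein, had log2 fold changes of 0.01, 0.01, -0.02 and 0.05. None of these 6 genes passed. Atp2a2, the partner of the pumps at the store, was at 763 ± 79.8 CPM with DMSO and 695 ± 100.3 CPM with GSK-126. Exons on the opposite strand cover 1.37% of the exon bases of Atp2a2 and 0.631% of those of Itpkb.

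**Figure D4:**
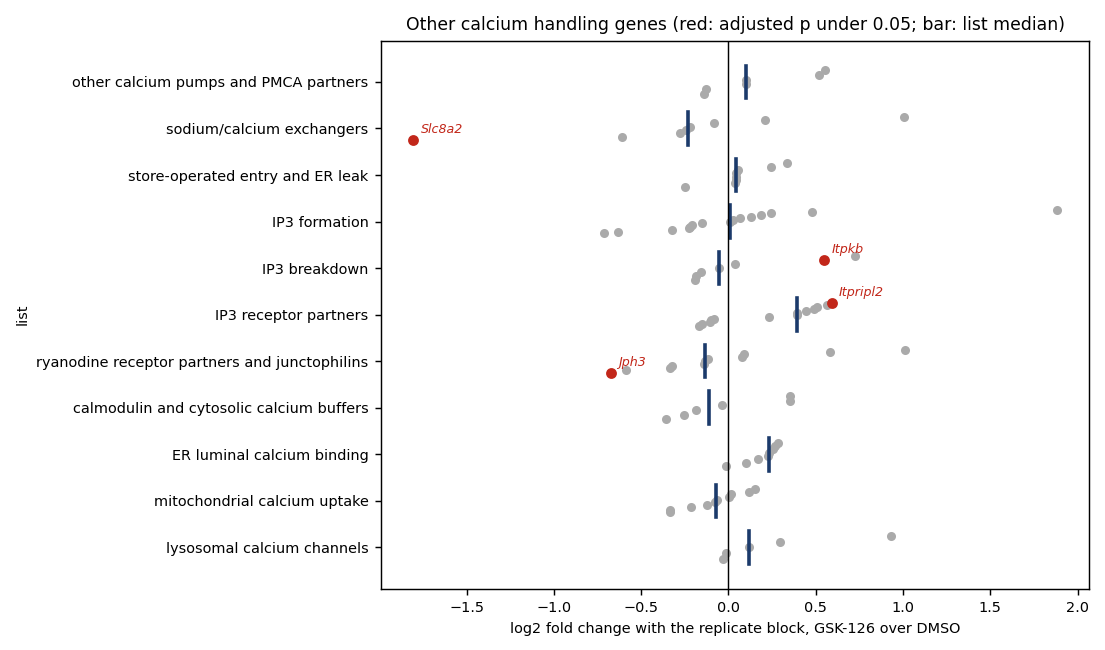
Log2 fold change of GSK-126 over DMSO with the replicate block (x axis) of the 97 tested genes in 11 lists by role (y axis); points are genes, bars are list medians, and red points passed an adjusted p of 0.05. Slc8a2 at -1.80 and Jph3 at -0.67 lie to the left, and Itpkb at 0.55 and Itpripl2 at 0.59 to the right, of medians that lie between -0.23 and 0.39.

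The summed markers of granule neurons, of GABAergic interneurons and of genes shared by all neurons were lower with GSK-126 in each pair, as Atp2b2 was. Single markers were not all lower. The ratios of the GABAergic interneuron sum were 0.755, 0.802 and 0.762, and Slc32a1 was its 1 called gene. The Purkinje cell sum was not lower in every pair, with ratios of 0.933, 1.19 and 1.19. The granule neuron sum with GSK-126 was 0.699, 0.713 and 0.703 of the DMSO sum in pairs 1, 2 and 3, and 7 of its 10 genes passed the test, all of them lower, such as Gabra6 and Slc17a7 of mature granule neurons. Zic1, Zic2 and Pax6 did not pass, and Pax6 had a log2 fold change of 0.04. A list of 10 genes shared by all neurons, added after the data had been seen, had sums of 3308 to 4598 CPM with DMSO and 2493 to 3890 CPM with GSK-126, with ratios of 0.754, 0.846 and 0.824, and 2 of its genes, Snap25 and Nefl, passed. Tubb3 and Dcx of the same list had log2 fold changes of 0.36 and 0.22, which did not pass (adjusted p = 0.167 and 0.525). Fibroblast markers, 3 genes, summed to 2542 to 3482 CPM with DMSO and to 3710 to 4120 CPM with GSK-126, without overlap. Most of this sum was Col1a1, the 1 gene of the 3 that passed, and Dcn and Lum overlapped between the groups. Markers of endothelial and mural cells, 6 genes, were at 128 to 186 CPM and 187 to 269 CPM, also without overlap. Here Pdgfrb was the 1 gene called of 4 tested and the largest part of the sum, and Kdr had a log2 fold change of -0.01.

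Set against the granule neuron sum, Atp2b2 was at 7.34, 11.5 and 7.88 CPM per 100 CPM of markers with DMSO and between 6.41 and 10.2 with GSK-126. The ratios within pairs were then 0.873, 0.884 and 1.02, and set against the list shared by all neurons they were 0.809, 0.745 and 0.866. For Atp2b3 they were 0.851, 0.934 and 1.26 against the granule neuron sum. Against the list shared by all neurons those of Atp2b3 were 0.789, 0.787 and 1.07. Slc8a2 kept lower ratios, of 0.465, 0.287 and 0.510 against the granule neuron sum, and those of Jph3 were 0.955, 0.855 and 0.865. Itpr1 set against the granule neuron sum was higher with GSK-126 in each pair, by 1.53, 1.59 and 1.72. That sum was itself lower in each pair, and the ratios of Itpr1 in CPM were 1.07, 1.13 and 1.21, without a call. Set against the astrocyte and Bergmann glia sum, the ratios were 1.04, 1.14 and 1.40 for Itpr1. Those of Atp2b2 against the same sum were 0.591, 0.633 and 0.830, and those of Atp2b3 were 0.576, 0.668 and 1.03. The part of cell makeup in these differences was not tested.

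**Figure D5:**
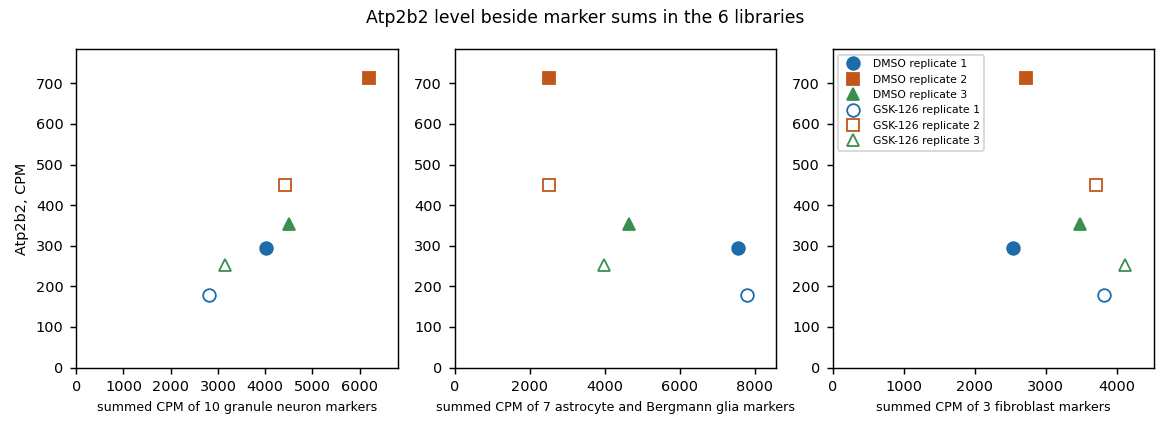
Atp2b2 level in CPM (y axis) against the summed CPM of 10 granule neuron, 7 astrocyte and Bergmann glia, and 3 fibroblast markers (x axes, all from 0) in the 6 libraries; filled symbols are DMSO and open symbols GSK-126. DMSO replicate 2 has both the highest Atp2b2, 712 CPM, and the highest granule neuron sum, 6192 CPM, and the 3 open symbols lie right of the filled ones of the same shape for fibroblast markers.

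Across the 6 libraries, the genes whose log2 CPM followed Atp2b2 most closely were Ndrg4, Ust and Eef1a2, with Pearson r of 0.998, 0.997 and 0.997. Of these, Eef1a2 fell under GSK-126, with a log2 fold change of -0.65 (adjusted p = 0.00886), and Ndrg4 and Ust had values of -0.27 and -0.35 that did not pass. The closest genes to Itpr1 were Atp7a, Arid5a and Lama2, with r of 0.997, 0.996 and 0.992. These points share libraries, pairs and treatment, and the values are a description.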

How the data were processed

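Poly(A) RNA had been sequenced from 6 CGN cultures, 3 per group, grouped by the agent in the labels. The authors deposited a table of raw counts for each library, with whole reads per gene, neither normalized nor pooled. Per the submitters' processing notes and the study's methods, reads were trimmed (Trimmomatic 0.38), aligned with STAR 2.7.2b to GRCm38 and counted over exons with HTSeq. The 5 summary rows of HTSeq were dropped, and 39.1% to 41.6% of fragments were assigned to genes. Another 44.8% to 46.7% lay over no counted feature, and 9.54% to 10.4%, aligned to several places, were not assigned. PCR duplicates carried no molecular identifiers, so the floor of 3 counts per library (0.249 to 0.374 CPM) covers counting error only.

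Counts were filtered (filterByExpr, minimum count 10), scaled by TMM and tested with edgeR 4.0.16 quasi-likelihood (R 4.3.3), with replicate number and treatment as terms, and adjusted by Benjamini-Hochberg over 16343 genes at 0.05. The block was set because the report compares the groups in pairs of the same replicate number, a pairing that the study's methods do not state. Replicates were pooled litters. Libraries of the same number correlated in their deviations from group means (0.35, 0.50 and 0.52), and other combinations lay from -0.41 to -0.01. Deviations within a group cancel, so the negative values follow in part from the positive ones. Every pair of libraries differed by more than sampling noise (lowest chi-square per degree of freedom 10.7). The script was tested on simulated data. Levels are CPM, log2 CPM used a prior count of 2, and exon lengths and coordinates came from GENCODE M21, in which all 55341 symbols were found.

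The named genes were the 10 pump and channel genes, the called genes of each list (or, with none, the gene of highest mean CPM), and the 3 genes most correlated with Atp2b2 and with Itpr1; 1 gene of this rule is not reported here. The genes and lists were chosen with earlier results of these data known. DESeq2 1.42.0, limma 3.58.1, RLE scaling, no filter, no replicate block and leaving out each replicate number were alternatives.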

Additional observations from a re-analysis of the deposited data

How the results depend on the processing

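Without the replicate block, 0 of the 10 genes, 0 of the other calcium handling genes and 0 of all genes were called in either direction (edgeR, with 981 unadjusted p below 0.05), and the 5 called calcium genes kept their sign. With the block, the 10 genes gave 1 lower call, 2 with DESeq2, limma or no filter, and 0 to 2 on leaving out a replicate number, with 0 without replicate 2. None was called higher under any alternative. The other calcium handling genes gave 2 higher calls, 4 with DESeq2, 6 with no filter and 0 to 2 on leaving out a replicate number, and 2 lower calls, with 1 to 4. Over all genes, 365 higher and 232 lower calls became 708 and 428 with no filter, and ranged from 125 to 396 and from 53 to 308 on leaving out a replicate number, the lowest without replicate 2. The cause was not tested. Signs turned for 6 genes, with log2 fold changes from -0.17 to 0.05, none of which passed: Itpr2 was 0.019 without the block, 0.0086 with limma, 4.8e-04 with RLE and 0.0043 with no filter. On leaving out a replicate number, Itpr2 ranged from -0.084 to 0.059, Ryr3 from -0.33 to 0.070, Gnaq from -0.072 to 0.076, Tpcn1 from -0.095 to 0.061, Vdac1 from -0.11 to 0.083 and Tmbim6 from -0.0073 to 0.10.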
